A study of Mus musculus and Homo sapiens with 12 samples.

Results

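HIF target genes are transcripts that the hypoxia-inducible factors switch on. The group described here holds 9 such genes, EGLN1, EGLN3, LOXL2, ADM, CA9, BNIP3, NDRG1, P4HA1 and P4HA2. They were chosen by name, with earlier results of these data known. All 9 were found in both tables, among 54331 mouse and 60233 human gene identifiers. The 12 libraries are poly(A) RNA from 2 breast cancer cell lines, EMT6 (mouse) and MDA-MB-231 (human). Each line has 3 wild-type libraries and 3 libraries with PFKFB4 knocked out. All were kept in high-glucose DMEM with serum and antibiotics under 5% CO2 at 37C, and the labels name no treatment and no oxygen level. Sample titles call the replicates biological. The labels do not say whether a knockout came from 1 clone, nor whether replicates were separate cultures, so p-values measure only the spread between these libraries.

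HIF is a pair of proteins, an oxygen-labile alpha subunit (HIF1A or EPAS1) and the stable partner ARNT. When oxygen is plentiful, prolyl hydroxylases of the EGLN family mark the alpha subunit, and VHL directs it to destruction. When oxygen is short, the pair binds short DNA motifs with the core ACGTG or GCGTG and raises its targets, which include EGLN1 and EGLN3 themselves. PFKFB4, a regulator of glycolysis, is known as a HIF target too. Alpha subunit protein, by which HIF activity is largely set, is not measured by RNA sequencing.

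The promoter windows of 4 mouse members are shown because they carry the core motif and belong to genes that behaved differently. Egln3 had the lowest fold change of the group, Adm was the member that rose, and Bnip3 has the most matches. P4ha1 is the collagen hydroxylase subunit flagged in the comparison of the lines, by an unadjusted test that depended on the setting. Each window runs 5′ to 3′ on the gene's strand, from 250 bases before to 50 bases after the RefSeq start site on GRCm38.p6, with the core in capitals on either strand (CACGT and CACGC are the cores read on the opposite strand).
Egln3 (chr12:54203825-54204124, minus strand): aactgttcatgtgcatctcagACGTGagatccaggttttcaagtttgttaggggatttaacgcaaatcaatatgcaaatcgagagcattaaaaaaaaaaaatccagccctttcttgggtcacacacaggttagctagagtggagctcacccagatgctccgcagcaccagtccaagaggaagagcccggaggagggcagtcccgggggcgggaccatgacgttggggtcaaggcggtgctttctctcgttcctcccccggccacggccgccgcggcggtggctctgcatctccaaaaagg
Adm (chr7:110627407-110627706, plus strand): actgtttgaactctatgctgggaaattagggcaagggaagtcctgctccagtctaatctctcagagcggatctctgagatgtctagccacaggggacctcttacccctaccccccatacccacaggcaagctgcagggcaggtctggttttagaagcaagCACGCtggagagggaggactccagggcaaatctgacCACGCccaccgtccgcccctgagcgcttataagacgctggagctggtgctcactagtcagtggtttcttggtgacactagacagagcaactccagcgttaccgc
P4ha1 (chr10:59323046-59323345, plus strand): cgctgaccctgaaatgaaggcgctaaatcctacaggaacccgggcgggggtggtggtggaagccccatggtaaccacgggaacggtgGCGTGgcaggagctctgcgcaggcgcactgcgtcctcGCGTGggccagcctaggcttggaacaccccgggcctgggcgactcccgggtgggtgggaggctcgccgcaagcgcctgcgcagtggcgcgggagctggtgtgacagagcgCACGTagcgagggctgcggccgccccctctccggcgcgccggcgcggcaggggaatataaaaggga
Bnip3 (chr7:138909457-138909756, minus strand): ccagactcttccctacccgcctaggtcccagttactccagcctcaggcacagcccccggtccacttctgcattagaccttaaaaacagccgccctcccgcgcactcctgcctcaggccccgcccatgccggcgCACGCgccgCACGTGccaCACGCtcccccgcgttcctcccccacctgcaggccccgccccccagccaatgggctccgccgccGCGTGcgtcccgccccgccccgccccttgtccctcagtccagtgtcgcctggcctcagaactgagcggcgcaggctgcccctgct

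RefSeq windows were matched for 7 of the 9 mouse members, all except Loxl2 and Ndrg1. All 7 held ACGTG or GCGTG on at least 1 strand, as did 43.8% of all 32851 windows of this length. Egln3 had 1 match, at position -229 from the start site. Adm had 2, both GCGTG on the opposite strand, at -90 and -54. Egln1 had 2 and Car9 had 1, at -18. P4ha1 had 3 and P4ha2 had 4. The P4ha2 window is set on a RefSeq start site at 54100924, inside the gene as placed by GENCODE (from 54100095). Bnip3 had 5, of which a pair is a single CACGTG, the palindromic E-box, counted once on each strand; 7.15% of all windows hold that sequence. At least 2 matches were present in 5 of the 7 windows and in 20.6% of all. Members that fell, the member that rose and the member that was not called all held the core, and a match is not evidence of binding.

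**Figure D1:**
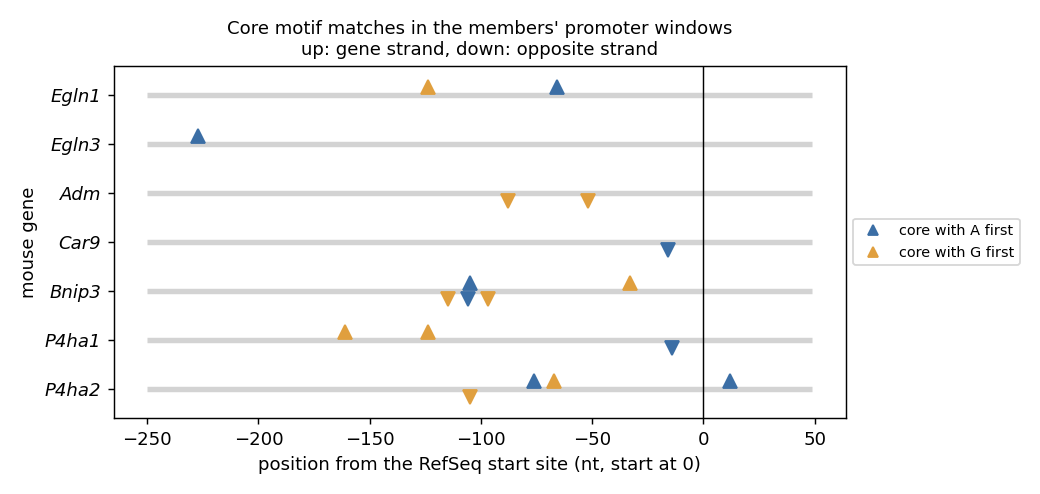
Position of each core motif match (triangles, in nt from the RefSeq start site, up for the gene strand and down for the opposite strand, blue for ACGTG and orange for GCGTG) in the windows of 7 mouse members. The matches number 1 in Egln3 and Car9 and 5 in Bnip3, and a single match, in P4ha2, lies after the start site.

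The values are TPM, which are corrected for gene length and scaled to the same total in each library, so levels of different genes can be compared within a library. Between 11871 and 12426 genes reached 1 TPM in an EMT6 library, and between 13038 and 13593 in a library of MDA-MB-231; read depth is unknown. In EMT6, transcript of the targeted gene Pfkfb4 went from 10.4 ± 0.178 TPM to 7.36 ± 0.763 TPM with the knockout (SD, n = 3), and fell by 0.45 on the log2(TPM + 1) scale (limma adjusted p = 0.00487; adjusted p = 0.0632 under median-ratio scaling). Human PFKFB4 was not analysed here, since the human table gives identifiers only and names were at hand for the 9 members alone. Of 7 epithelial markers in EMT6 4 were tested: Krt8 rose (482 to 535 TPM), and Krt18 (36.3 to 15.5 TPM), Krt14 (36.5 to 3.94 TPM) and Krt19 (1.95 to 0.0177 TPM, tested through its wild-type libraries alone) were lower, while Epcam, Cdh1 and Krt5 stayed under the 0.5 TPM filter. Of 6 mesenchymal markers 5 were tested: Vim rose (2711 to 3292 TPM), and Fn1 (616 to 451 TPM), Zeb1 (4.74 to 1.69 TPM), Col1a1 and Col1a2 (303 to 171 TPM) fell. Of 7 leukocyte markers, 3 were tested and 2 rose, Cd68 (23.9 to 56.1 TPM) and Coro1a (2.17 to 5.14 TPM), which took the summed level from 49.95 to 54.1 TPM in wild type up to 82.6 to 87.4 TPM. The pan-leukocyte marker Ptprc was listed at 0 in all wild-type libraries and at no more than 0.00409 TPM in the knockout; the part of these markers in the results was not tested. All 5 endothelial and 3 erythroid markers stayed under 0.5 TPM. Within bulk RNA, fewer cells expressing a gene and less RNA per cell cannot be told apart.

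In EMT6, 7 members fell in the knockout, Adm rose, and Egln1 was not called. Over all 13499 genes tested, limma called 56.7%, with 14.5% higher and 42.3% lower, and the median log2 fold change was -0.21. The members' median was -0.62. Egln3 passed the expression filter through its wild-type libraries alone, so it had to differ; without it the counts are 6 lower and 1 higher of 8, with a median of -0.51. By library ranges, 8 members were lower and 1 higher with no overlap between groups, as were 48.3% and 17.9% of all tested genes (66.2% in either direction). The cause of the general tilt toward lower values was not tested. When libraries were scaled by their median ratio, which centres the typical gene by construction, the median of all genes moved to -0.01. Of all 13499 genes, 3426 were then lower and 3584 higher, so higher calls made up 51.1% of all calls in place of 25.5%. The members stood at 5 lower, 2 higher and 2 not called.

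The oxygen sensors behaved differently from each other. Egln3 (chromosome 12, 54178981 to 54203860, minus strand, GRCm38), a prolyl hydroxylase that marks the alpha subunit, stood at 5.75, 5.66 and 5.68 TPM in wild-type cells, against 0.0814, 0.0907 and 0.0503 TPM in the knockout libraries. The transcript was thus close to the floor in all 3 knockout libraries. The wild-type mean was 76.9 times the knockout mean. The log2 fold change came to -2.64 ± 0.06 (SE), given as a description, since only the wild-type libraries took Egln3 past the filter. In the fit of all genes with no filter it was also called lower (limma adjusted p = 0.000207). On a log2(TPM + 0.1) scale, which compresses low values less, it was -5.06.

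Egln1 (chromosome 8, 124908587 to 124949324), the main sensor in most cells, stood at 18.4, 18.4 and 18.6 TPM in wild type, against 18.2, 18.2 and 18.1 TPM in the knockout. The groups did not overlap, but the means differed by a ratio of only 0.983. The log2 fold change was -0.02 (95% interval -0.13 to 0.08; limma adjusted p = 0.65). Its direction turned with the scaling: it was called higher under median-ratio scaling (0.20, adjusted p = 0.0102), and also once the trend with exon length was removed (0.15, adjusted p = 0.0199). The third family member, Egln2, was called higher, at 17.6 and 21.1 TPM (0.25, adjusted p = 0.0194).

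The collagen-modifying members all fell. Loxl2 (chromosome 14, 69609068 to 69695834), a lysyl oxidase-like enzyme that cross-links collagen outside the cell, stood at 5.55, 5.45 and 5.47 TPM in wild type, against 0.518, 0.606 and 0.568 TPM in the knockout. The groups lay far apart with little spread in either. The wild-type mean was 9.74 times the knockout mean and the log2 change was -2.05 ± 0.06 (SE; adjusted p by limma = 2.05e-05), rank 105 from the lowest.

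P4ha1 (chromosome 10, 59323296 to 59373304), a catalytic subunit of the prolyl hydroxylase that stabilises the collagen triple helix, stood at 49.8, 47.3 and 47.0 TPM in wild type, against 28.3, 29.8 and 26.4 TPM in the knockout. P4ha2 (chromosome 11, 54100095 to 54131665), the alternative catalytic subunit, stood at 27.6, 20.9 and 24.5 TPM in wild type, against 13.4, 12.5 and 12.1 TPM in the knockout. In both genes every knockout library was below every wild-type library. The knockout means were 0.586 and 0.523 of wild type, with log2 fold changes of -0.75 ± 0.06 and -0.88 ± 0.11 (SE; adjusted p by limma = 0.00036 and 0.00136). P4hb, which encodes the partner subunit of both and was named after its values were seen, stood at 730 and 692 TPM and was not called (-0.08, adjusted p = 0.289).

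Adm (chromosome 7, 110627661 to 110629820), which encodes the vasodilator peptide adrenomedullin, moved the other way. It stood at 2.19, 3.03 and 2.48 TPM in wild type, against 10.8, 9.77 and 10.1 TPM in the knockout. The lowest member of the group in wild type thus stood above Loxl2 and Egln3 in the knockout and overlapped Car9. The knockout mean was 3.98 times wild type and the log2 change was 1.66 ± 0.10 (SE; adjusted p by limma = 0.000201), rank 80 from the highest of 13499. Of its receptor genes, Calcrl was listed at 0 in all 6 libraries, and Ramp1, Ramp2 and Ramp3 had means of at most 0.0772 TPM, so none of the 4 passed the filter.

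Ndrg1 (chromosome 15, 66929318 to 66969640), a stress-responsive gene studied as a suppressor of metastasis, stood at 61.9, 51.5 and 50.98 TPM in wild type, against 34.6, 34.8 and 36.1 TPM in the knockout. The knockout libraries were closely grouped and all below wild type (log2 fold change -0.62 ± 0.08, SE; limma adjusted p = 0.00183). Bnip3 (chromosome 7, 138890836 to 138909519), a mitochondrial protein that promotes mitophagy, stood at 45.1, 41.9 and 41.002 TPM in wild type, against 36.02, 31.7 and 33.7 TPM in the knockout (-0.33 ± 0.07, SE; limma adjusted p = 0.00715). The Bnip3 fall was close to the shift of all genes, and under median-ratio scaling it was not called (-0.10, adjusted p = 0.295).

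Car9 (chromosome 4, 43506966 to 43513729), a carbonic anhydrase of the cell surface that helps to export acid, stood at 10.97, 11.7 and 11.8 TPM in wild type, against 10.5, 8.08 and 7.22 TPM in the knockout. Knockout replicate 1 lay just under the wild-type range. The fall (-0.39 ± 0.13, SE; limma adjusted p = 0.0429) was the least certain of the group. It was not called under median-ratio scaling (-0.18, adjusted p = 0.321) or with the exon length trend removed (adjusted p = 0.0542), no filter (0.0887) or a replicate block (0.0775). It was also lost without wild-type replicate 1, 2 or 3 (adjusted p = 0.0771, 0.104 and 0.104) and without knockout replicate 2 or 3 (0.11 and 0.104), and kept without knockout replicate 1 (0.00778). An antisense gene, Gm12454, shares 214 nt of exon with Car9 and was listed at 0.982 to 2.30 TPM; Loxl2, Bnip3 and Ndrg1 also share exon sequence with antisense genes, and no source at hand states how strand was treated.

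**Figure D2:**
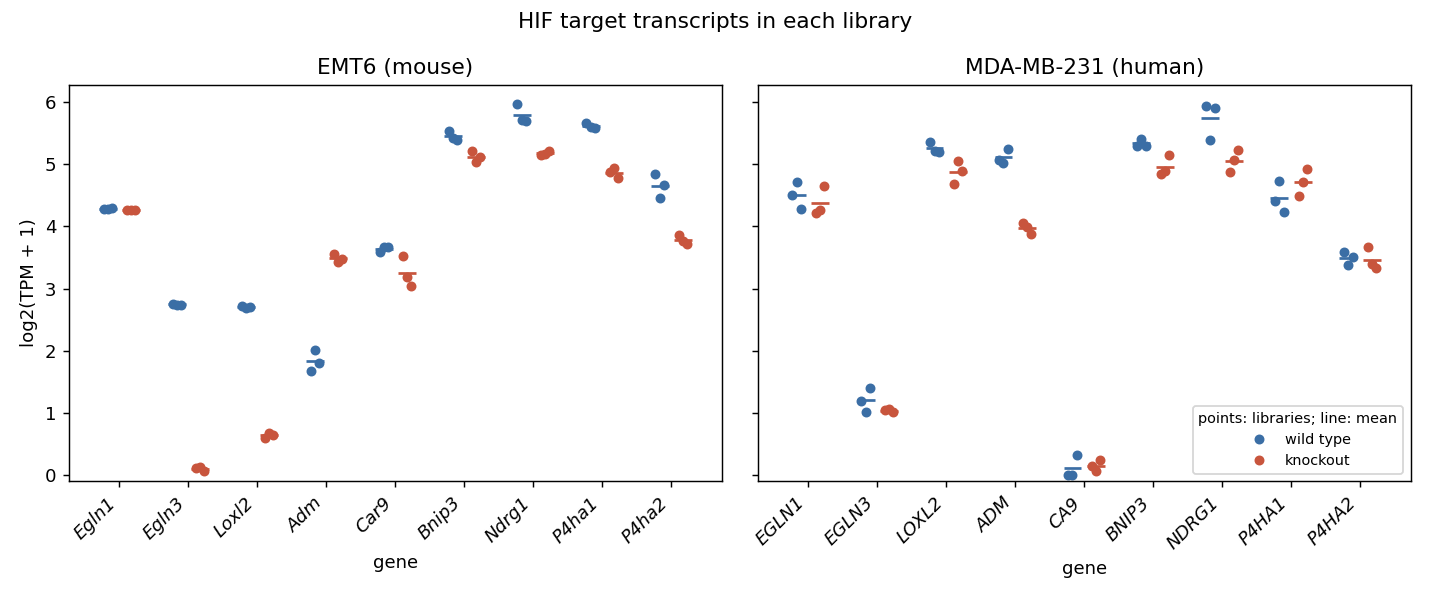
Level of each member on the log2(TPM + 1) scale (vertical axis) in the 3 wild-type (blue) and 3 knockout (red) libraries of EMT6 and MDA-MB-231, with points for libraries and short lines for their means. Egln3 and Loxl2 drop toward 0 and Adm rises in the EMT6 knockout, whereas ADM is lower in the MDA-MB-231 knockout and CA9 is near 0 in all MDA-MB-231 libraries.

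Genes of the HIF pathway that are not members were described in EMT6 from lists chosen by name, also with earlier results of these data known. Among 11 genes of the HIF machinery 8 were tested, with 3 lower, 2 higher and 3 not called, and a median of -0.003, against 42.3% lower, 14.5% higher and -0.21 for all genes. Hif1a, the alpha subunit, stood at 48.5, 40.5 and 35.1 TPM in wild type, against 19.1, 19.3 and 14.9 TPM in the knockout, with no overlap (log2 fold change -1.17 ± 0.15, SE; limma adjusted p = 0.00156). Its partner Arnt fell from 16.2 ± 2.22 to 9.14 ± 0.677 TPM (SD, n = 3; -0.75, adjusted p = 0.00232). Both calls held under median-ratio scaling (-0.94 and -0.53). Epas1, the other main alpha subunit, was at or below 0.0312 TPM in every library, and Hif3a was listed at 0. Of the negative regulators, Hif1an, an asparaginyl hydroxylase, fell (-0.42) and Cited2, a competitor for coactivators, rose (0.23, adjusted p = 0.0429). Vhl was at 28.1 and 34.3 TPM (0.27, adjusted p = 0.114), and was called higher under median-ratio scaling (0.50, adjusted p = 0.0223). That scaling gave 4 higher and 3 lower in this list, beside 3584 higher and 3426 lower of all 13499 genes. Without any 1 of the 6 libraries, 1 gene was called higher in place of 2, and not always the same gene. Without knockout replicate 2 it was neither Egln2 nor Cited2.

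Of 29 other non-glycolytic HIF targets 24 were tested, and 17 fell, 3 rose and 4 were not called, with a median of -0.62, beside 42.3% lower and 14.5% higher over all genes. Ddit4, an inhibitor of mTOR signalling, fell from 35.4 ± 3.35 to 15.6 ± 0.296 TPM (SD, n = 3; -1.12, limma adjusted p = 0.000255). Bnip3l, the mitophagy receptor related to Bnip3, fell from 69.2 ± 7.04 to 34.6 ± 1.26 TPM (-0.98), and Mxi1, an antagonist of MYC, from 7.47 to 3.48 TPM (-0.92). Fam162a (0.45), Rab20 (0.62) and the glycogen branching enzyme gene Gbe1 (0.35) rose. Vegfa, the angiogenic growth factor, named after its values were seen, fell from 50.8 ± 3.07 to 25.7 ± 3.56 TPM (-0.97). Under median-ratio scaling 14 of the list were lower and 5 higher, with a median of -0.43 against -0.01 for all genes. Of all 13499 genes, that scaling called 3426 lower and 3584 higher.

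Of 17 glycolytic targets tested, 7 fell and 2 rose, shares near the 42.3% lower and 14.5% higher of all tested genes, with a median of -0.09 against -0.21. The lactate exporter Slc16a3 (-0.72), the glucose transporter Slc2a1 (-0.60) and Pfkl, a phosphofructokinase subunit (-0.59), fell, and Hk2 (0.34) and Pgk1 (0.30) rose. Under median-ratio scaling the split turned to 8 higher and 4 lower, beside 3584 higher and 3426 lower of all 13499 genes. The named genes kept their directions and calls under that scaling.

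Among 13 genes of collagen hydroxylation, cross-linking and the collagens themselves, 11 were tested and 10 fell, with none higher and a median of -0.64, beside 42.3% lower and a median of -0.21 over all tested genes. The fibrillar chains Col1a1 (200 to 52.4 TPM, -1.92) and Col5a1 (36.0 to 11.9 TPM, -1.52) and the collagen chaperone Serpinh1 (327 to 238 TPM, -0.46) had the smallest adjusted p. With median-ratio scaling 8 were lower, as were 3426 of all 13499 genes. Of 9 pH and bicarbonate genes 7 fell and 2 rose (median -0.51, against the same 42.3% lower and 14.5% higher of all genes), among them the carbonic anhydrase Car12 (-0.68) and the transporters Slc16a1 (-0.77) and Slc16a3, while Car13 (0.48) and the transporter chaperone Bsg (0.20) rose. Of 7 mitophagy genes 3 fell, Bnip3l, Bcl2l13 (-0.85) and Fundc1 (-0.29), and 3 rose, Pink1 (0.43), Fkbp8 (0.41) and Phb2 (0.13). The share that fell was again near the 42.3% of all tested genes, of which 14.5% rose. Fundc1 was not called under median-ratio scaling (limma adjusted p = 0.535). Of the paralogs of Ndrg1, Ndrg3 fell and Ndrg4 was lower (0.944 and 0.321 TPM), but Ndrg4 passed the filter through its wild-type libraries alone and so had to differ. Ndrg3 ran from 36.2 to 53.5 TPM in wild type and, with the knockout, from 15.5 to 29.9 TPM (-0.86, adjusted p = 0.0353; 0.0911 under median-ratio scaling).

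Some of these list calls near the threshold were lost without 1 library. Cited2 lost its call without any library except knockout replicate 3 (adjusted p by limma from 0.0763 to 0.122), and Egln2 without knockout replicate 2 or 3 (0.051 and 0.0634). Gbe1 lost it without wild-type replicate 2 or 3 or knockout replicate 1 or 2 (0.0516 to 0.0615), and Phb2 without any library except knockout replicate 2 (0.0581 to 0.104). Fundc1 lost it without replicate 1 or 3 of either group (0.0958 to 0.121), and Ndrg3 without wild-type replicate 1 or 2 or knockout replicate 2 (0.101, 0.0696 and 0.0563). The calls of Hif1a, Arnt, Hif1an, Bcl2l13 and Pfkfb4 held without any 1 library. With the exon length trend removed, however, Pfkfb4 was not called (-0.18). The HIF machinery list then stood at 2 lower and 3 higher, beside 3677 lower and 3099 higher of the 13487 genes tested in that setting.

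In MDA-MB-231, 3 members fell in the knockout, ADM, BNIP3 and NDRG1, and none rose. CA9 did not pass the filter, which leaves 8 tested. Of 15299 genes tested, limma called 20.0%, with 7.97% higher and 12.1% lower, and the median log2 fold change was -0.04. The median of the 8 members was -0.27. By library ranges, 4 members, these 3 and LOXL2, lay lower with no overlap, as did 22.9% of all tested genes (40.1% did not overlap in either direction).

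ADM (ENSG00000148926) had the lowest fold change of the group. It stood at 32.7, 31.3 and 36.8 TPM in wild type, against 15.6, 14.9 and 13.7 TPM in the knockout, so that every knockout library was well under every wild-type library. The knockout mean was 0.439 of wild type and the log2 change was -1.13 ± 0.10 (SE; adjusted p by limma = 0.000863), rank 397 from the lowest of 15299. The call held without any 1 library (adjusted p from 0.00359 to 0.00713) and under the other settings tried (adjusted p up to 0.0121).

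NDRG1 (ENSG00000104419) stood at 60.04, 40.7 and 58.5 TPM in wild type, against 28.2, 32.6 and 36.3 TPM in the knockout. Wild-type replicate 2 lay apart from the other wild-type libraries but above the knockout. NDRG1 fell and the log2 change was -0.68 ± 0.17 (SE; adjusted p by limma = 0.0374). The call was lost without wild-type replicate 1 or 3 (adjusted p = 0.117 and 0.105) and without knockout replicate 1, 2 or 3 (0.0923, 0.101 and 0.0621), and held without wild-type replicate 2 (0.0118). It was also lost with no filter (0.0891) and with a replicate block (0.0669).

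BNIP3 (ENSG00000176171) stood at 38.3, 41.4 and 38.2 TPM in wild type, against 27.5, 28.6 and 34.4 TPM in the knockout, with no overlap. BNIP3 fell and the log2 change was -0.38 ± 0.10 (SE; adjusted p by limma = 0.0478), at the edge of the threshold. It was lost without any 1 of the wild-type libraries (adjusted p = 0.122, 0.112 and 0.0995) or knockout replicate 1 or 2 (0.102 and 0.148), and held without knockout replicate 3 (0.0299). It was also lost without a mean-variance trend (0.0592), without the 10 most abundant genes (0.0654), with no filter (0.0861) and with a replicate block (0.117). Processed pseudogenes of BNIP3 are known in the human genome, and how the authors' counting split reads among them was not tested.

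LOXL2 (ENSG00000134013) was abundant in this line, at 39.9, 36.2 and 35.7 TPM in wild type against 24.7, 32.02 and 28.7 TPM in the knockout. The groups did not overlap, but the test was not passed (log2 fold change -0.38, 95% interval -0.65 to -0.11; limma adjusted p = 0.0588). Under median-ratio scaling LOXL2 was called (-0.34, limma adjusted p = 0.0433), which gave 4 members lower, beside 1747 of all 15299 genes.

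The remaining members overlapped between groups. EGLN1 (ENSG00000135766) ran from 18.4 to 25.2 TPM in wild type and, with the knockout, from 17.5 to 24.1 TPM (log2 fold change -0.13, 95% interval -0.52 to 0.27; limma adjusted p = 0.628). EGLN3 (ENSG00000129521) was low in both, at 1.28, 1.03 and 1.65 TPM against 1.06, 1.08 and 1.02 TPM (-0.17, interval -0.46 to 0.13; adjusted p = 0.381). P4HA1 (ENSG00000122884) was at 20.2, 25.4 and 17.8 TPM against 21.5, 25.1 and 29.4 TPM (0.25, interval -0.14 to 0.65; adjusted p = 0.325). P4HA2 (ENSG00000072682) was at 11.1, 9.45 and 10.4 TPM against 11.7, 9.51 and 9.02 TPM (-0.04, interval -0.34 to 0.27; adjusted p = 0.868), and its sign depended on the scaling. CA9 (ENSG00000107159) was listed at 0 in 2 wild-type libraries and at 0.25 TPM in the other, and at 0.044 to 0.187 TPM in the knockout.

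**Figure D3:**
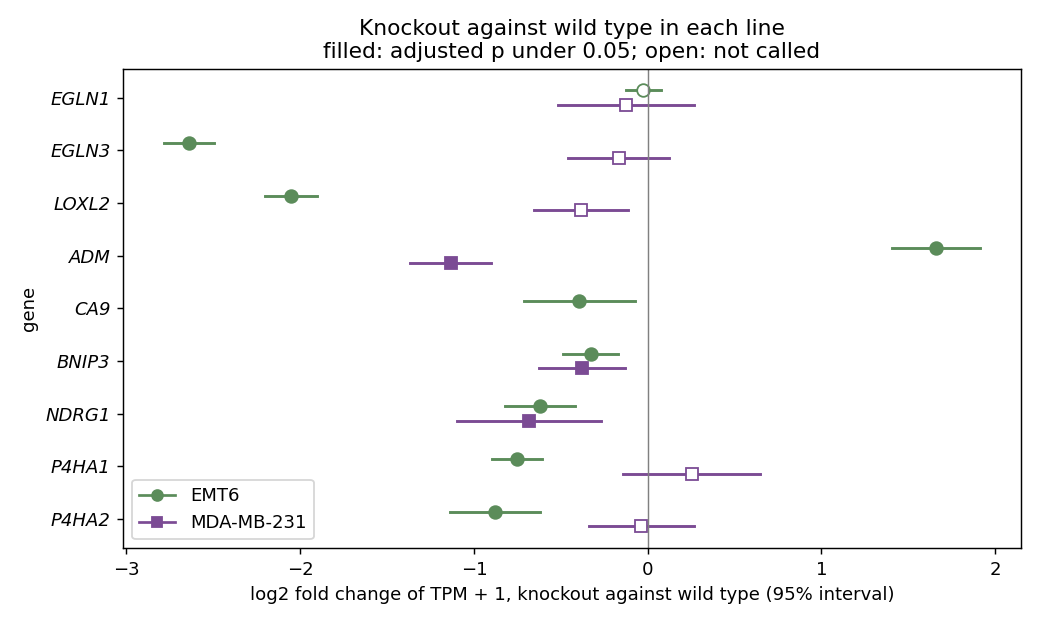
Log2 fold change of TPM + 1, knockout against wild type, with its 95% interval, for each member in EMT6 (green circles) and MDA-MB-231 (purple squares), filled where limma's adjusted p is under 0.05. ADM lies at 1.66 in EMT6 and -1.13 in MDA-MB-231, and the intervals of BNIP3 and NDRG1 in the 2 lines overlap.

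The knockout effects of the 2 lines were compared for the 8 members measured in both, as the difference of their log2 fold changes, MDA-MB-231 minus EMT6. The p is from an exact two-sided permutation of genotype labels within each line, over 400 relabelings with 0.005 as the smallest p, and is not adjusted for the 8 comparisons. The null of this permutation is no knockout effect in either line, not equal effects in both. A small p alone thus does not show that the effects differ. ADM differed by -2.79 ± 0.14 (SE from both fits; exact permutation p = 0.005): all 3 EMT6 knockout libraries were above wild type and all 3 MDA-MB-231 knockout libraries below it. P4HA1 differed by 1.01 ± 0.17 (exact permutation p = 0.015), with a fall in EMT6 and a value of 0.25 that was not called in MDA-MB-231. With the replicate numbers kept together as blocks, P4HA1 missed the threshold (exact permutation p = 0.0625, where 0.0312 is the smallest of 64 relabelings) and ADM kept it (0.0312).

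EGLN3 differed by 2.47 ± 0.14, LOXL2 by 1.67 ± 0.13 and P4HA2 by 0.84 ± 0.16 (SE; exact permutation p = 0.09, 0.1 and 0.06). Because both lines are relabelled, this test gives no small p where nearly all of a difference comes from 1 line. For LOXL2 the 95% intervals of the 2 lines did not overlap (EMT6 from -2.20 to -1.90, MDA-MB-231 from -0.65 to -0.11). Those of P4HA2 did not either (EMT6 from -1.14 to -0.62, MDA-MB-231 from -0.34 to 0.27), nor did those of ADM and P4HA1. For EGLN3 they were also apart, given as a description since its wild-type libraries alone passed the filter in EMT6. BNIP3 differed by -0.05 ± 0.12, NDRG1 by -0.06 ± 0.19 and EGLN1 by -0.10 ± 0.17 (SE; exact permutation p = 0.87, 0.9 and 0.585), and the errors leave room for larger differences in either direction. Under median-ratio scaling the differences of BNIP3, NDRG1 and EGLN1 were -0.24, -0.25 and -0.28 (exact permutation p = 0.19, 0.51 and 0.09). BNIP3 and NDRG1 were the members called lower in both lines at the main setting. In MDA-MB-231, BNIP3 lost its call in 9 alternatives and NDRG1 in 7, and in EMT6 Bnip3 lost it under median-ratio scaling. LOXL2 was also lower with no overlap in both lines, but was not called in MDA-MB-231 (-0.38, limma adjusted p = 0.0588).

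The levels of the members also had an order within each line, to be read within a table since the 2 tables were normalized separately. In EMT6 wild type the order was Ndrg1 (54.8 TPM), P4ha1 (48.1), Bnip3 (42.7), P4ha2 (24.3), Egln1 (18.5), Car9 (11.5), Egln3 (5.70), Loxl2 (5.49) and Adm (2.57), with no overlap between neighbours. In the EMT6 knockout Ndrg1 (35.2 TPM) and Bnip3 (33.8) overlapped, as did Adm (10.2) and Car9 (8.60). In MDA-MB-231 wild type NDRG1 (53.1 TPM), BNIP3 (39.3), LOXL2 (37.2) and ADM (33.6) led, with overlap between neighbours from NDRG1 to ADM and none between ADM and EGLN1. EGLN1 (21.7) and P4HA1 (21.2) overlapped, and P4HA2 (10.3), EGLN3 (1.32) and CA9 (0.0834) followed without overlap. In the MDA-MB-231 knockout the order was NDRG1 (32.4 TPM), BNIP3 (30.2), LOXL2 (28.5), P4HA1 (25.3), EGLN1 (19.9), ADM (14.7), P4HA2 (10.1), EGLN3 (1.05) and CA9 (0.112), with overlap between neighbours from NDRG1 to EGLN1. NDRG1 and BNIP3 headed the order in both MDA-MB-231 groups, and LOXL2 and ADM, among the lowest in wild-type EMT6, stood near the top in wild-type MDA-MB-231.

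Across the 6 EMT6 libraries, the genes whose log2(TPM + 1) pattern was most like that of Adm were Cst3 (Pearson r = 0.9997), Plac9b (0.9991) and Saa3 (0.9986). For Egln3 they were Cxcl3 (r = 0.9998), Padi4 (0.9997) and Rtn3 (0.9997), and for Loxl2 Rtn3 (0.9998), Col6a3 (0.9998) and Neurl3 (0.9997). These libraries fall into the 2 genotypes, so any gene with a tight difference between them scores high: 567 genes exceeded 0.99 for Egln3 and 186 for Adm. For Car9, whose knockout libraries spread, 4 genes did, led by Decr2 (r = 0.9936).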

How the data were processed

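Per the submitters' processing notes, the builds were mm10 and GRCh38.p7 and the authors' tools were TopHat2 2.1.1, CASAVA 1.8.2, Subread 1.6.4 and featureCounts, with settings not stated. TPM values were deposited, 1 table per line. The knockout columns carry codes that no label explains and were taken as the knockout by elimination. Each line was fitted alone, over all genes with at least 0.5 TPM in at least 3 libraries, by limma 3.58.1 (R 4.3.3) on log2(TPM + 1), using a mean-variance trend, Benjamini-Hochberg adjustment and calls at 0.05. The script was tested on simulated data. Mouse names and positions are from GENCODE M21 (GRCm38), which named 54097 of 54331 identifiers, and promoter windows from RefSeq (GRCm38.p6). Human gene lists and positions, and a fit of the difference between lines over all genes, were not analysed here. Named genes were all members, Hif1a, Epas1, Arnt, Vhl, Pfkfb4, and up to 3 genes per list and direction by adjusted p; P4hb, Vegfa, Hif3a, the adrenomedullin receptors and cell type markers are named outside this rule. Members and lists were chosen with earlier results of these data known.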

Additional observations from a re-analysis of the deposited data

Results flagged for a closer look

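The knockout effect on ADM differed between the lines by -2.79 on the log2 scale (MDA-MB-231 minus EMT6; exact permutation p = 0.005, the smallest the design allows): the transcript was higher in 3 of 3 EMT6 knockout libraries and lower in 3 of 3 MDA-MB-231 knockout libraries than in any wild-type library of the same line. The effect on P4HA1 differed by 1.01 (exact permutation p = 0.015), with a fall in EMT6 and overlapping groups in MDA-MB-231. Neither p is adjusted for the 8 members compared, and the null of both is no knockout effect in either line, not equal effects.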

How the results depend on the processing

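Alternatives were limma without a trend, median-ratio scaling, no filter or a filter of 1 TPM, a pseudocount of 0.1, a replicate block, omission of the 10 most abundant genes, leaving out each library and, in EMT6 alone for want of human exon lengths, removal of the exon length trend; leaving Egln3 out of the EMT6 count was added after seeing the data. Over members and alternatives, 197 of 230 fold changes kept their direction and side of the threshold. Of the others, 26 lost a call and 1 gained one with the sign kept, and 6 changed sign, whether called or not. The causes were not tested. Egln1 turned to 0.20 under median-ratio scaling and to 0.15 once the length trend was removed, and either setting gave 2 members called higher in EMT6. P4HA2 in MDA-MB-231 turned to 0.0079 under median-ratio scaling and 0.0059 without the 10 most abundant genes, and ran from -0.14 (without knockout replicate 1) to 0.033 (without knockout replicate 3) when 1 library was left out. In MDA-MB-231, members called lower numbered 1 with no filter (ADM), 1 with the replicate block, and 1 to 2 without any 1 library; in EMT6, 6 to 7. Of all genes in EMT6, median-ratio scaling called 3584 higher and 3426 lower, and removal of the length trend 3099 and 3677, against 1954 and 5705. In MDA-MB-231 the replicate block called 534 higher and 1030 lower against 1220 and 1845, and leaving out 1 library 543 to 1107 higher and 975 to 1597 lower. Deviations of same-numbered libraries were little correlated (from -0.0175 to 0.0728 in EMT6 and from -0.127 to 0.114 in MDA-MB-231). Those of differently numbered libraries ran from -0.122 to 0.0623 and from -0.182 to 0.191. Whether same-numbered libraries shared a batch or culture was not tested. With the block, 6 EMT6 members were called lower, without Car9 (adjusted p = 0.0775), and the members that passed the permutation threshold in the comparison of lines numbered 1 in place of 2. The differences between lines of EGLN1, NDRG1 and BNIP3 changed sign without 1 MDA-MB-231 library: EGLN1 ran from -0.24 to 0.0064 (without wild-type replicate 2), NDRG1 from -0.24 to 0.037 (positive without wild-type replicate 1 or 3 or knockout replicate 1), and BNIP3 from -0.14 to 0.012 (without knockout replicate 1). P4HA2 passed the threshold for the difference without wild-type replicate 1 or knockout replicate 3 of MDA-MB-231 (exact permutation p = 0.045 and 0.04). A filter of 1 TPM leaves that test as it is, and the permutation test listed as its alternative became its main form.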
